A study of Mus musculus with 4 samples.

Results

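Cd4, Cd8a and Cd8b1 encode the coreceptors of T cells, and these 3 genes of the 55487 gene entries in the deposited matrices are described here in immune cells of the mouse mammary gland. They were chosen by name, with earlier results of these data known. Cells were called Cd3-positive where they held at least 1 UMI of Cd3e, Cd3d or Cd3g, the genes of the CD3 chains that every T cell receptor needs at the surface. A UMI (unique molecular identifier) marks 1 captured RNA molecule. Of the analysed cells, 6313 of 15281 in the library named DR_MG_2021, called the first library here, and 6737 of 14604 in DR_MG_2022, the second library, were Cd3-positive.

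The study sequenced CD45+ cells, that is leukocytes, in 2 pooled droplet libraries, and each animal group was marked by a hash tag, an antibody that carries a short DNA barcode. Tags of the first library stood for Nulliparous (HT4), Gestation (HT5) and Lactation (HT6), and the tag HT2 is named Germ-free in the deposited sheet although the library's title lists Involution and no germ-free group. Those of the second library stood for Gestation (HT5), Lactation (HT6), Involution (HT8), Regression (HT9), Balb/c (HT10), GF (HT12, germ-free) and again HT2, named Germ-free in that sheet as well although GF has a tag of its own. The Nulliparous tag HT4 of the second library had 1 count in cells and gave no sample, and HT2 is called by its tag here. Involution and regression are the stages in which the gland returns to rest after milk production. No other treatment or allele is named for any group. Not given in the sources used here are how many animals a tag stands for, which strain the groups other than Balb/c come from, and the reproductive stage of GF and Balb/c. Each name had 1 hash-defined sample in a library, 11 in all, so p-values measure only the spread between these samples, which may be technical.

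CD4 and CD8 bind the invariant part of MHC molecules beside the T cell receptor and bring the kinase Lck to it: CD4 binds MHC class II, which presents to helper and regulatory T cells, and CD8 binds MHC class I, which presents to cytotoxic T cells. CD8 is made of a pair of chains. CD8αβ (Cd8a with Cd8b1) is the coreceptor of conventional cytotoxic T cells, while CD8αα (Cd8a alone) is known from unconventional lymphocytes of epithelia, including many γδ T cells, and from some dendritic cells. CD4 is also found on some macrophages, dendritic cells and innate lymphocytes of rodents. The genes lie on chromosome 6 of the mouse. On the mm10 build (GRCm38.p6, RefSeq), Cd8b1 spans chr6:71322788-71337492, Cd8a spans chr6:71373427-71379171 and Cd4 spans chr6:124864693-124888247. The 35934 bases between Cd8b1 and Cd8a hold 0 other listed genes.

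The barcodes of the hash tags are shown because they alone assign a cell, and with it each coreceptor count, to a sample. All 15 bases of each were read, 5′ to 3′:

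HT2: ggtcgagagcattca

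HT4: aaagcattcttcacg

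HT5: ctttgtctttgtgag

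HT6: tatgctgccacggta

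HT8: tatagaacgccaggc

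HT9: tgcctatgaaacaag

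HT10: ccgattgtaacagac

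HT12: ctgcaaatataacgg

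The libraries differed in depth: cells that passed the filters, before tags and doublets were called, held a median of 1599 UMIs in the first library and 3049 in the second library. A UMI of Ptprc, which encodes CD45, was found in 86.1% of Cd3-positive cells in the first library and 97.5% in the second library. Cd3-positive cells made up 25.5 to 68.5% of a sample. The libraries have 139 cell barcodes in common. Because a rare transcript is missed more often in a shallow cell, shares of cells were taken after each cell had been thinned at random to 1000 UMIs, and the Cd3 genes were required after thinning. This left out 9.76 to 33.2% of the analysed cells of a sample in the first library and 1.40 to 4.18% in the second library. Intervals in parentheses are exact 95% intervals and cover counting error only.

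At this depth most Cd3-positive cells of every sample had no UMI of a coreceptor gene. Their share was lowest in Gestation of the second library, at 60.3% (57.9 to 62.6), and highest in Balb/c, at 78.5% (75.4 to 81.3). Without thinning it was 39.9% in Gestation of the second library and 66.5% in Balb/c, so a cell listed with none at 1000 UMIs may still carry the transcripts, and samples are compared within a library at matched depth. In Cd3-negative B-like cells, which should lack all 3 genes, a UMI was found at this depth in 0.215% (first) and 0.339% (second library) of cells for Cd4, 0.430% and 0.339% for Cd8a and 0.215% and 0.451% for Cd8b1.

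**Figure D1:**
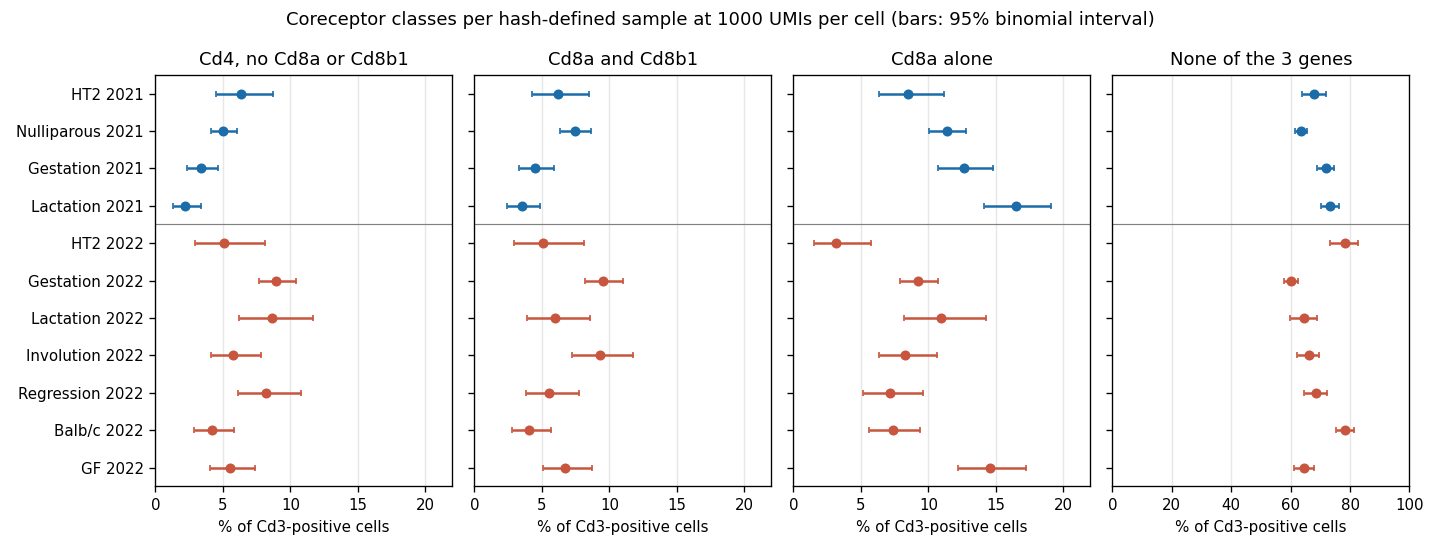
Share of Cd3-positive cells (percent, x axis) in 4 coreceptor classes for each of the 11 hash-defined samples (y axis), thinned to 1000 UMIs. Points are shares and bars are exact 95% binomial intervals. Cd8a alone ranges from 3.18% in HT2 of the second library to 16.5% in Lactation of the first library, and Cd4 from 2.18% in Lactation of the first library to 8.95% in Gestation of the second library.

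Cd4, the coreceptor gene of helper and regulatory T cells, was detected without Cd8a or Cd8b1 in few cells. Across the first library the share was 6.34% (4.46 to 8.71) in HT2, 5.02% (4.12 to 6.05) in Nulliparous, 3.35% (2.36 to 4.61) in Gestation and 2.18% (1.34 to 3.35) in Lactation. The Lactation sample was lowest, and its interval overlapped that of Gestation but not those of Nulliparous and HT2. Across the second library it was 8.95% (7.64 to 10.4) in Gestation, 8.68% (6.21 to 11.7) in Lactation, 8.23% in Regression, 5.76% in Involution, 5.55% in GF, 5.10% in HT2 and 4.18% in Balb/c. The intervals of Gestation and Lactation overlapped here too. Without thinning the shares were 3.44 to 7.54% in the first library and 9.54 to 17.96% in the second library.

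Cells with both Cd8a and Cd8b1, the pair that encodes CD8αβ, followed another order. They made up 7.44% (6.35 to 8.66) of Cd3-positive cells in Nulliparous, 6.16% (4.30 to 8.50) in HT2, 4.47% (3.31 to 5.88) in Gestation and 3.49% (2.40 to 4.90) in Lactation of the first library. The intervals of Gestation and Lactation lay below that of Nulliparous and overlapped each other. Of the second library, the share was 9.53% (8.18 to 11.02) in Gestation, 9.31% (7.22 to 11.7) in Involution, 6.71% in GF, 5.94% (3.91 to 8.58) in Lactation, 5.55% in Regression, 5.10% in HT2 and 4.05% in Balb/c. Neighbours in this order overlapped in their intervals. In 20 further random draws the share stayed between 7.78 and 9.44% in Gestation and between 6.51 and 10.05% in Lactation of the second library. The shares above for these 2 samples fell outside those ranges, and the ranges overlapped, so no order of the 2 is read. Without thinning the share ran from 6.82% (Gestation) to 13.04% (Nulliparous) in the first library and from 9.75% (Balb/c) to 26.4% (Involution) in the second library.

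Cells with Cd8a alone, that is with neither Cd8b1 nor Cd4, ran in the opposite order to Cd4 in the first library. The share was 8.51% (6.32 to 11.2) in HT2, 11.4% (10.0 to 12.8) in Nulliparous, 12.7% (10.7 to 14.8) in Gestation and 16.5% (14.1 to 19.0) in Lactation. Lactation lay above Nulliparous and HT2 with no overlap, and overlapped Gestation narrowly. In the second library GF was highest, at 14.6% (12.2 to 17.3), followed by Lactation at 10.96% (8.19 to 14.3), Gestation at 9.24% (7.91 to 10.7), Involution at 8.27%, Balb/c at 7.34%, Regression at 7.16% and HT2 at 3.18% (1.54 to 5.78). GF lay above Gestation, while Lactation overlapped both. Over 20 further random draws the share stayed between 12.9 and 15.8% in GF, between 15.1 and 17.9% in Lactation of the first library and between 8.97 and 11.7% in Gestation of the second library. Without thinning it was 19.4% in Lactation of the first library, against 8.12 to 12.3% in its other samples, and 14.8% in GF, against 3.28 to 10.8% in the other samples of the second library.

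In the draw used here, Cd8b1 without Cd8a was more frequent than the pair in all 11 samples at 1000 UMIs. Without thinning the pair was more frequent in every sample of the second library. In Lactation of the second library, 20 further draws gave 6.40 to 9.66% for Cd8b1 alone and 6.51 to 10.05% for the pair. In Lactation of the first library they gave 2.41 to 4.41% and 2.98 to 4.39%. The ranges also overlapped in Involution, Balb/c and GF, so no order is read in these samples or in Lactation. Elsewhere Cd8b1 alone lay above the pair in all of these draws. At 1000 UMIs the share of Cd8b1 alone was lowest in Lactation of the first library, at 4.37% (3.14 to 5.90), and 7.72 to 12.5% in its other samples. The second library had 5.82% in Balb/c and 7.96 to 11.6% elsewhere.

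The counts of the 2 CD8 genes showed the same contrast without any cut on single cells. Cd8a gave 203 UMIs against 267 of Cd8b1 in HT2 of the first library, 1159 against 1269 in Nulliparous, 419 against 379 in Gestation and 643 against 202 in Lactation. The ratio of Cd8a to Cd8b1 UMIs was thus 0.760 (0.630 to 0.916), 0.913 (0.843 to 0.9898), 1.11 (0.960 to 1.27) and 3.18 (2.71 to 3.75). Lactation stood apart from the other samples of that library. Across the second library the ratio was 0.549 (0.443 to 0.678) in HT2, 0.668 (0.584 to 0.764) in Regression, 0.731 (0.663 to 0.807) in Involution, 0.837 (0.787 to 0.891) in Gestation, 1.14 (0.9905 to 1.32) in Lactation, 1.15 (0.998 to 1.33) in Balb/c and 1.20 (1.08 to 1.32) in GF. The last 3 overlapped one another and lay above the first 4. The ratio in Lactation was 2.88 times that in Gestation in the first library and 1.36 times in the second library. These are 3′ UMI counts, not scaled to gene length, so the ratio is compared between samples and not read as the relative amount of the transcripts.

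**Figure D2:**
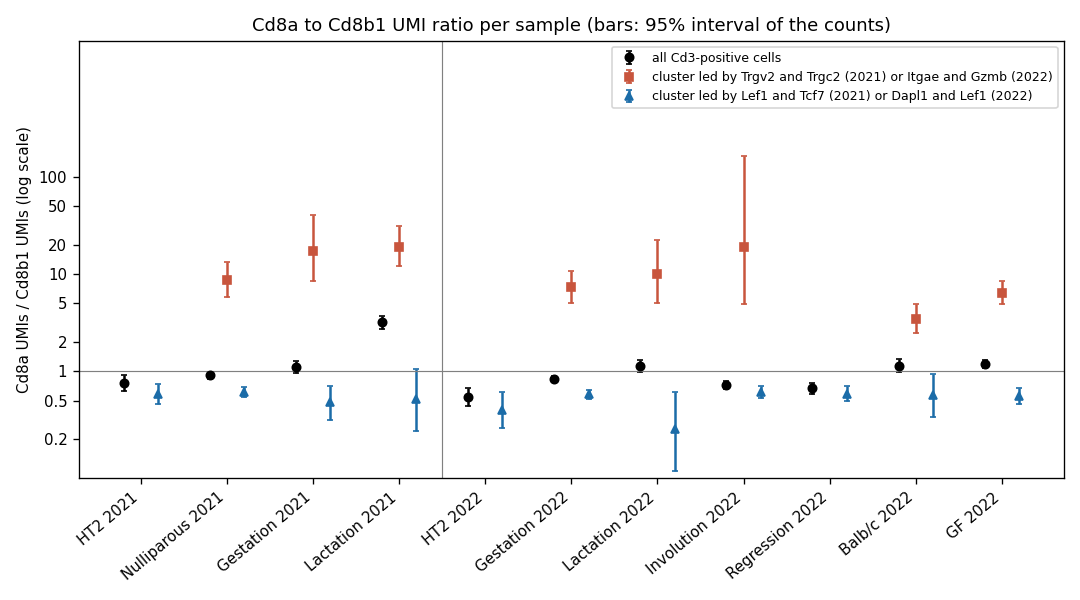
Ratio of Cd8a to Cd8b1 UMIs (y axis, log scale) in Cd3-positive cells of each of the 11 hash-defined samples, for all cells and for the clusters the text describes; bars are exact 95% intervals from the counts. Lactation of the first library stands apart at 3.18, and the clusters led by Trgv2 and Trgc2 (first) and by Itgae and Gzmb (second library) lie above those led by Lef1 with Tcf7 or Dapl1; clusters with few UMIs in a sample are not drawn.

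Cells were clustered in each library with the 3 coreceptor genes left out, and the ratio was then taken within clusters. A T-like cluster of the first library, led by Trgv2 and Trgc2, genes of the γ chain of the γδ T cell receptor, and by Gzmb and Itgae, carried Cd8a almost without Cd8b1. Its ratio was 8.66 (5.88 to 13.2) in Nulliparous, 17.1 (8.45 to 40.5) in Gestation and 18.9 (12.1 to 31.3) in Lactation, with overlapping intervals. This cluster held 13.9% of the Cd3-positive cells in Nulliparous, 32.0% in Gestation and 47.6% in Lactation. A T-like cluster led by Lef1 and Tcf7, transcription factors of naive T cells, had a ratio of 0.585 in HT2, 0.622 in Nulliparous, 0.481 in Gestation and 0.520 in Lactation, and it held 44.5, 46.1, 11.6 and 5.70% of the Cd3-positive cells in the same order. Cd8b1 UMIs outnumbered Cd8a UMIs in every stage in the Lef1 and Tcf7 cluster and were the fewer in every stage in the Trgv2 and Trgc2 cluster. In Lactation the share of cells in the latter was highest and in the former lowest.

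An unnamed cluster of the second library, led by Itgae and Gzmb, with Trgc2 and Trgv2 among its first 10 genes, likewise carried more Cd8a than Cd8b1. Its ratio was 7.29 in Gestation, 10.0 in Lactation, 19.0 in Involution (38 UMIs against 2), 3.45 in Balb/c and 6.41 in GF. It held 11.02% of the Cd3-positive cells in Gestation, 22.01% in Lactation, 4.89% in Involution, 44.4% in Balb/c and 29.5% in GF. The samples with the largest shares of this cluster were Balb/c, GF and Lactation, the 3 whose ratio over all Cd3-positive cells was above 1. A cluster led by Dapl1 and Lef1 had ratios from 0.259 (Lactation, 7 UMIs against 27) to 0.610 (Involution).

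The coreceptor classes were spread over these clusters unevenly. Of the cells with Cd8a alone, 347 (44.0%) fell in the Trgv2 and Trgc2 cluster in the first library and 260 (47.6%) in the Itgae and Gzmb cluster in the second library. Of the cells with both CD8 genes, 277 (44.2%) fell in the Lef1 and Tcf7 cluster in the first library and 574 (42.6%) in the Dapl1 and Lef1 cluster in the second library, and 50 (3.71%) in the Itgae and Gzmb cluster. Of the Cd4 cells, 216 (57.0%) fell in the Lef1 and Tcf7 cluster in the first library. Of those of the second library, 319 (33.8%) fell in the Dapl1 and Lef1 cluster and 303 (32.1%) in a CD8 T-like cluster led by Cd28 and Cd6. A further 163 (17.3%) fell in a CD4 T-like cluster led by Ctla4 and Foxp3, genes of regulatory T cells. They made up 51.6% of the Cd3-positive cells of that cluster. Of the Cd3-positive cells in the γδ T-like cluster of the second library, 88.5% had no coreceptor UMI.

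A cell with many Cd8a UMIs is unlikely to miss Cd8b1 only through shallow sampling, so detection of Cd8b1 was followed by the number of Cd8a UMIs in Cd3-positive cells without Cd4. In the second library Cd8b1 was found in 64.8% (61.1 to 68.3) of cells with 1 Cd8a UMI, 74.5% with 2, 76.4% with 3 and 74.8% (70.2 to 78.9) with 4 or more. In the first library it was found in 46.2% (42.8 to 49.7), 42.1%, 48.6% and 28.9% (19.8 to 39.4; 26 of 90 cells). The share levelled off in the second library, and in the first library it was lowest in the cells richest in Cd8a.

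**Figure D3:**
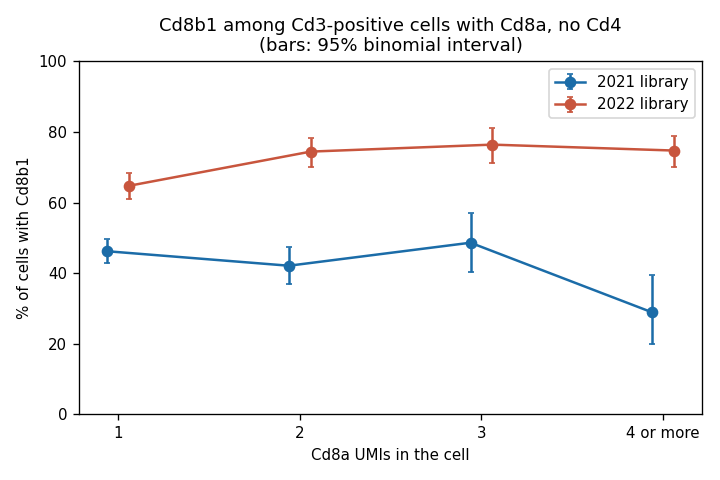
Share of Cd3-positive cells without Cd4 that held a Cd8b1 UMI (percent, y axis) against the number of Cd8a UMIs in the cell (x axis), by library; bars are exact 95% binomial intervals. With 4 or more Cd8a UMIs the share was 28.9% in the first library and 74.8% in the second library.

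Among cells with 4 or more Cd8a UMIs the samples differed. Of the first library, Cd8b1 was found in 5 of 45 such cells of Lactation (11.1%, 3.71 to 24.1) and in 19 of 38 of Nulliparous (50%, 33.4 to 66.6), and these intervals did not overlap. Of the second library, it was found in 20 of 21 cells of Regression (95.2%), 57 of 65 of Involution (87.7%), 127 of 158 of Gestation (80.4%), 27 of 41 of Lactation (65.9%), 17 of 29 of Balb/c (58.6%) and 45 of 81 of GF (55.6%), and in all 9 of HT2. The 3 lowest of the second library were again Lactation, Balb/c and GF.

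Cd4 together with a CD8 gene was rare. At 1000 UMIs such cells were 6 of 4613 in the first library (0.130%, 0.0477 to 0.283) and 12 of 5274 in the second library (0.228%, 0.118 to 0.397), where independent detection of the genes would give 1.21% and 1.90%. Among droplets that carried more than 1 tag the share was 0.168% (2 of 1191) and 0.412% (6 of 1457), where independent detection would give 0.850% and 1.00%. The coreceptors were thus seldom detected together at this depth, both in cells with 1 tag and in droplets with more. Since mixed droplets also fell below independence, the measure cannot show how exclusive the genes are in single cells. Without thinning, the Dapl1 and Lef1 cluster of the second library held 319 cells with Cd4 and no CD8 gene, and 19 with Cd4 and a CD8 gene. The numbers were 163 and 9 in the Ctla4 and Foxp3 cluster, and 216 and 9 in the Lef1 and Tcf7 cluster of the first library.

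Gestation and Lactation are the stages named in both libraries, so the effect of stage was fitted on UMIs summed per sample with edgeR's quasi-likelihood test, with the library year as a block and 1 residual degree of freedom. In Cd3-positive cells 9 of 10531 genes, 0.0855%, passed an adjusted p of 0.05, 5 higher (0.0475%) and 4 lower (0.038%), and the 3 coreceptor genes were not among them. Cd8b1 stood at 1.62 UMIs per 10000 in Gestation and 0.802 (0.695 to 0.921) in Lactation in the first library, and at 2.87 and 2.03 in the second library. Lactation was lower in both libraries, and the log2 fold change of Lactation over Gestation was -0.77 (SE 0.21, edgeR unadjusted p = 0.0043, adjusted p = 0.470). Cd4 stood at 0.411 and 0.175 (0.127 to 0.235) in the first library and at 0.781 and 0.741 in the second library, with a log2 fold change of -0.59 (SE 0.27, edgeR adjusted p = 0.997). Cd8a stood at 1.79 and 2.55 in the first library and at 2.40 and 2.32 in the second library. It was higher in Lactation in the first library and slightly lower in the second library, with a log2 fold change of 0.20 (SE 0.22, edgeR adjusted p = 0.997). The sums run over all Cd3-positive cells, so the mix of clusters and the level per cell cannot be told apart here. Markers of milk-producing epithelium summed to 6.90 UMIs per 10000 in Gestation and 89.1 in Lactation in the second library, and to 6.25 and 5.17 in the first library. Their part in these values was not tested.

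Other genes were counted in lists chosen for their roles. Of 10 genes of naive and recirculating T cells, 1 fell in Lactation: S1pr1, the receptor that lets T cells leave tissue, by 1.43 on the log2 scale (SE 0.19, edgeR adjusted p = 0.041). No gene passed, S1pr1 included, when cells took the tag of most counts or when the library block was left out. The other 8 genes that passed, which are named after their values were seen, are known from other cells: the globin genes Hba-a1, Hba-a2 and Hbb-bs of red blood cells fell, and the collagen genes Col1a1, Col1a2 and Col3a1 of fibroblasts and the immunoglobulin variable genes Igkv17-121 and Ighv1-82 of B cells were higher in Lactation. The part of RNA from such cells was not tested. The median of the list was -1.44, against 0.01 over all genes tested. None of the tested genes of 13 innate-like, 10 γδ T cell, 14 helper, 14 cytotoxic or 14 coreceptor choice genes passed, with medians of 0.58, 0.60, -0.18, 0.34 and -0.20. At an unadjusted p under 0.05 edgeR called 480 of 10531 genes, no more than this cut would call if no gene differed. Among them were all 10 naive genes, 8 of the 13 innate-like genes and 4 of the 10 γδ T cell genes. The same cut called 6 of the 14 helper, 4 of the 14 cytotoxic and 3 of the 14 coreceptor choice genes.

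In the other comparisons each sample served as its own control: within each sample, UMIs were summed over the Cd3-positive cells of a coreceptor class, and classes were compared with edgeR's quasi-likelihood test with the sample as a block. The coreceptor and Cd3 genes define the classes: they stay in the totals of genes that passed, and they are left out of the named genes, the lists and the medians. The numbers of cells were 1323 with Cd4, 1975 with Cd8a and Cd8b1, 1319 with Cd8a alone and 7331 with none. Levels are UMIs per 10000 after scaling between libraries.

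Cells with Cd4 were set against cells with both Cd8a and Cd8b1 in 11 samples. Most tested genes of the helper program were higher and most of the cytotoxic program lower in the Cd4 cells. Of 4394 genes tested 515 (11.7%) passed, 255 higher (5.8%) and 260 lower (5.92%), and without the genes that define the classes 254 were higher and 257 lower. Of 14 helper and regulatory genes 9 were abundant enough to test and 8 were higher, with a median log2 fold change of 1.93 against 0.01 over all genes. Cd40lg, the ligand through which helper T cells activate B cells and macrophages, lay between 0.542 and 1.49 (median 1.24) in the Cd4 cells and between 0.0197 and 0.284 (median 0.0886) in the others. The ranges did not overlap, and the log2 fold change was 3.87 (SE 0.25, edgeR adjusted p = 1.7e-10, higher in 11 of 11 samples). Cd40lg was so rare in the cells with both CD8 genes that it could have passed the filter through the Cd4 cells alone. The transcription factor Maf was higher by 3.29 (SE 0.18), the costimulatory receptor Icos by 1.87 (SE 0.15), Izumo1r by 2.69 (SE 0.21) and Ikzf2, which encodes Helios, by 2.24 (SE 0.19).

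Of 14 cytotoxic genes 11 were tested and 8 were lower in the Cd4 cells, with a median of -1.54. Nkg7, a protein of cytotoxic granules, lay between 0.949 and 7.27 (median 3.01) in the Cd4 cells and between 6.84 and 17.0 (median 9.45) in the cells with both CD8 genes. The ranges met only at their ends, and it fell by 1.64 (SE 0.11, edgeR adjusted p = 5.1e-10). The chemokine Ccl5 fell by 1.87 (SE 0.14), Klrd1 by 1.92, the pore-forming protein Prf1 by 1.69 and the granule protease Gzmb by 1.54 (lower in 10 of 11 samples). Klrd1 encodes CD94, a receptor partner on NK cells and cytotoxic T cells.

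Of 14 factors that take part in the choice between the lineages 11 were tested, 4 were higher and 1 lower in the Cd4 cells, with a median of 0.21, and 6 did not pass. Runx3, which represses Cd4 in the CD8 lineage, lay between 1.09 and 3.12 (median 1.59) in Cd4 cells and between 3.30 and 6.04 (median 4.34) in cells with both CD8 genes. The groups did not overlap, and the log2 fold change was -1.32 (SE 0.11, edgeR adjusted p = 9.9e-09, lower in 11 of 11 samples). Runx1 was higher in the Cd4 cells by 1.16 (SE 0.12) and Gata3, a factor of helper T cells, by 0.95 (SE 0.20, edgeR adjusted p = 0.0018, higher in 10 of 11 samples). Zbtb7b, which encodes the CD4 lineage factor ThPOK, was too rare to be tested, with 273 UMIs in the Cd4 cells and 57 in the others. Its median over samples was 0.709 UMIs per 10000 before scaling in the Cd4 cells and 0.0784 in the others.

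Among 14 signalling partners 5 were higher and 1 lower in the Cd4 cells. Cd5, an inhibitory receptor that tracks the strength of T cell receptor signals, was higher by 1.32 (SE 0.12) and the costimulatory receptor Cd28 by 0.95. Lck, the kinase that both coreceptors bind, had a log2 fold change of -0.17 (SE 0.08, edgeR adjusted p = 0.192). The constant regions Trac, Trbc1 and Trbc2 of the αβ receptor did not pass, with a median of 0.03. Outside the lists, Ly6c2 had the largest fall among the named genes, at -2.16. Tnfrsf18, which encodes GITR, was higher by 1.17. NK markers summed to 0.327 to 2.92 UMIs per 10000 in the Cd4 cells and 2.12 to 4.91 in the others. The 5 ILC2 markers summed to 1.11 to 6.71 (median 3.15) and 0.527 to 1.74 (median 1.19), none of them at 0 in either class, and the 2 that could be tested, Rora and Gata3, which helper T cells also express, were higher in the Cd4 cells. Icos and Ikzf2 were among the leading genes of the ILC2-like cluster of the first library, and ILC2-like clusters held 13 (3.43%) of the Cd4 cells in the first library and 15 (1.59%) in the second library. The part of NK and ILC2 cells in the result was not tested.

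Cells with Cd8a alone were set against cells with both CD8 genes in 10 samples, since HT2 of the second library had fewer than 20 cells with Cd8a alone. Innate-like genes and most cytotoxic genes were higher in the cells with Cd8a alone, and genes of naive T cells were lower. Of 4384 genes 553 (12.6%) passed, 261 higher (5.95%) and 292 lower (6.66%), and without the genes that define the classes 259 were higher and 291 lower. Of 12 innate-like genes tested all 12 were higher, with a median of 2.20 against 0.00 over all genes. Fcer1g, a signalling adaptor of Fc and NK receptors, lay between 4.49 and 28.9 (median 12.1) in cells with Cd8a alone and between 1.02 and 5.87 (median 2.54) in cells with both. The ranges over samples overlapped, but within samples it was higher in 10 of 10 samples, by 2.41 (SE 0.16, edgeR adjusted p = 1.4e-09). Tyrobp, the adaptor DAP12, was higher by 2.18 (SE 0.15), Cd7 by 2.21 (SE 0.12) and the NK receptor Klre1 by 2.86. Klra7, an inhibitory receptor of the Ly49 family, was higher by 3.49 (SE 0.22) and Klra1 by 3.20. Reads of Ly49 genes can be split among near-identical copies, so their values are uncertain.

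Of 14 cytotoxic genes 10 were higher and 1 lower, with a median of 0.72. Gzmb lay between 2.11 and 38.5 (median 11.9) in cells with Cd8a alone and between 0.436 and 11.9 (median 2.22) in cells with both. The ranges overlapped, but within samples it was higher in 10 of 10, by 2.63 (SE 0.18, edgeR adjusted p = 1.9e-09), and Gzma, another granule protease, by 2.50 (SE 0.35, edgeR adjusted p = 5.6e-05). Of 14 γδ T cell genes 3 were abundant enough to test and all 3 were higher: Trgc2 by 2.33 (SE 0.17), Trgv2 by 2.05 and Trgc1 by 2.57 (SE 0.23). Trac had a log2 fold change of -0.19 (edgeR adjusted p = 0.12), so that the constant gene of the α chain was detected in both classes while γ chain genes were higher with Cd8a alone.

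Of 9 naive genes tested all 9 were lower with Cd8a alone, with a median of -1.07, among them Ccr7, the lymph node homing receptor, at -1.35, Il7r at -1.07 and Dapl1 at -2.06. Of 11 coreceptor choice genes tested 5 were lower. Bcl11b, a factor that keeps T cell identity, lay between 1.33 and 3.63 (median 2.14) with Cd8a alone and between 3.18 and 5.18 (median 4.11) with both CD8 genes, and fell by 1.02 (SE 0.11, edgeR adjusted p = 2.5e-06) in 10 of 10 samples. Tcf7 fell by 1.06 and Lef1 by 1.27. Of 14 signalling partners 5 were lower, among them Cd28 at -1.14, Cd5 at -1.12 and Lat at -0.76, and the kinase Zap70 was higher by 0.59 (SE 0.09). Among the other named genes Themis, which tunes receptor signals in thymocytes, fell by 1.29 and Jchain, a plasma cell gene, by 1.77 in 8 of 10 samples.

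Markers of other cell types moved with this comparison. The 5 NK markers summed to 4.29 to 16.1 UMIs per 10000 (median 10.0) with Cd8a alone and 2.12 to 4.91 (median 3.13) with both CD8 genes, and none of them was at 0. The 5 γδ T markers summed to 0.544 to 6.84 and 0 to 1.12, with Cd163l1 and Il17a at 0 in the cells with Cd8a alone. Plasma cell markers had medians of 7.26 and 38.1, and epithelial markers ranged from 3.66 to 562 and from 3.74 to 9.77. The part of these cells in the result was not tested. The T markers Trac and Trbc2 summed to 11.3 to 17.4 with Cd8a alone and 11.6 to 16.6 with both.

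Trdc, the constant gene of the δ chain, was too rare to be tested in this comparison and set 1 sample apart. It was chosen after its values were seen and is a description. In cells with Cd8a alone it gave 3.87 UMIs per 10000 in GF and 0.0680 (Regression) to 0.777 (Balb/c) in the other 9 samples. It was found in 42 of the 141 GF cells with Cd8a alone (29.8%), and 8 of the 42 also had Trac. At 1000 UMIs these were 32 of 140 cells (22.9%, 16.2 to 30.7), against 4 of 84 in Balb/c (4.76%, 1.31 to 11.7), 5 of 154 in Gestation of the second library (3.25%) and 5 of 208 in Lactation of the first library (2.40%). In GF cells with both CD8 genes Trdc was found in 3 of 177 cells, and in GF cells with no coreceptor in 9.22% at 1000 UMIs. In Lactation of the first library and in Balb/c, where clusters with γ chain genes were also large, Trdc was instead more frequent in cells with no coreceptor, at 12.8% and 16.7%.

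Cells with no coreceptor UMI were set against cells with any of the 3 in 11 samples, and 1656 of 9380 genes (17.7%) passed, 913 higher (9.73%) and 743 lower (7.92%). Without the genes that define the classes 913 were higher and 738 lower. αβ receptor genes were lower and γδ and innate-like genes higher in the cells with none. Trac lay between 1.58 and 3.73 (median 2.67) in cells with none and between 3.36 and 5.87 (median 4.66) in cells with any, and fell by 0.79 (SE 0.07, edgeR adjusted p = 3.5e-07) in 11 of 11 samples. Trbc2 fell by 0.54 and Trbc1 by 0.35. Trdc lay between 0.726 and 2.32 (median 1.29) with none and between 0.0693 and 1.10 (median 0.230) with any. It was higher by 2.19 (SE 0.24, edgeR adjusted p = 2.5e-06) in 11 of 11 samples. Of 8 γδ T cell genes tested all 8 were higher, with a median of 1.42 against -0.00 over all genes, among them Cd163l1 by 3.26 (SE 0.28) and Blk, a kinase of B cells and of γδ T cells that make IL-17, by 3.12.

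Of 13 innate-like genes tested 12 were higher, with a median of 0.75. They included Zbtb16, the factor PLZF of innate-like T cells, by 2.25, Klre1 by 1.20 and Tyrobp by 1.13. Of 14 signalling partners 10 were lower, with a median of -0.37, Lck by 0.45 (SE 0.07, edgeR adjusted p = 0.00012) and Lat by 0.69 among them. Of 10 naive genes 9 were lower. Of 14 coreceptor choice genes 8 were lower, among them Lef1 at -0.98, Tcf7 at -0.72 and Bcl11b at -0.64, and 3 were higher, among them Runx1 at 0.35. Themis fell by 1.45 and Fam241a by 1.53.

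Markers of cells that are not T cells were also higher in the cells with none. The 5 B markers summed to a median of 3.69 UMIs per 10000 with none and 2.69 with any, the 5 NK markers to 8.17 and 3.66, the 7 macrophage markers to 11.9 and 9.42 and the 5 neutrophil markers to 1.53 and 0.24. S100a8 and S100a9 of neutrophils were higher by 1.93 and 1.84 and Ebf1 of B cells by 1.92. The T markers Trac and Trbc2 summed to 6.95 to 11.3 with none and 12.3 to 15.7 with any. In the second library, NK-like and B-like clusters held 7.92% and 5.95% of the Cd3-positive cells with none. Of 7 tested genes of coreceptor ligands 3 were higher and 1 lower with none, and the 3 were the MHC class II genes H2-Aa, by 1.00, H2-Ab1, by 0.95, and H2-Eb1, by 0.95. In the comparison of Cd4 cells 0 of 7 ligand genes passed, and with Cd8a alone 1 of 7 was lower, H2-Eb1 at -0.78. How far other cell types in these droplets account for the differences was not tested.

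**Figure D4:**
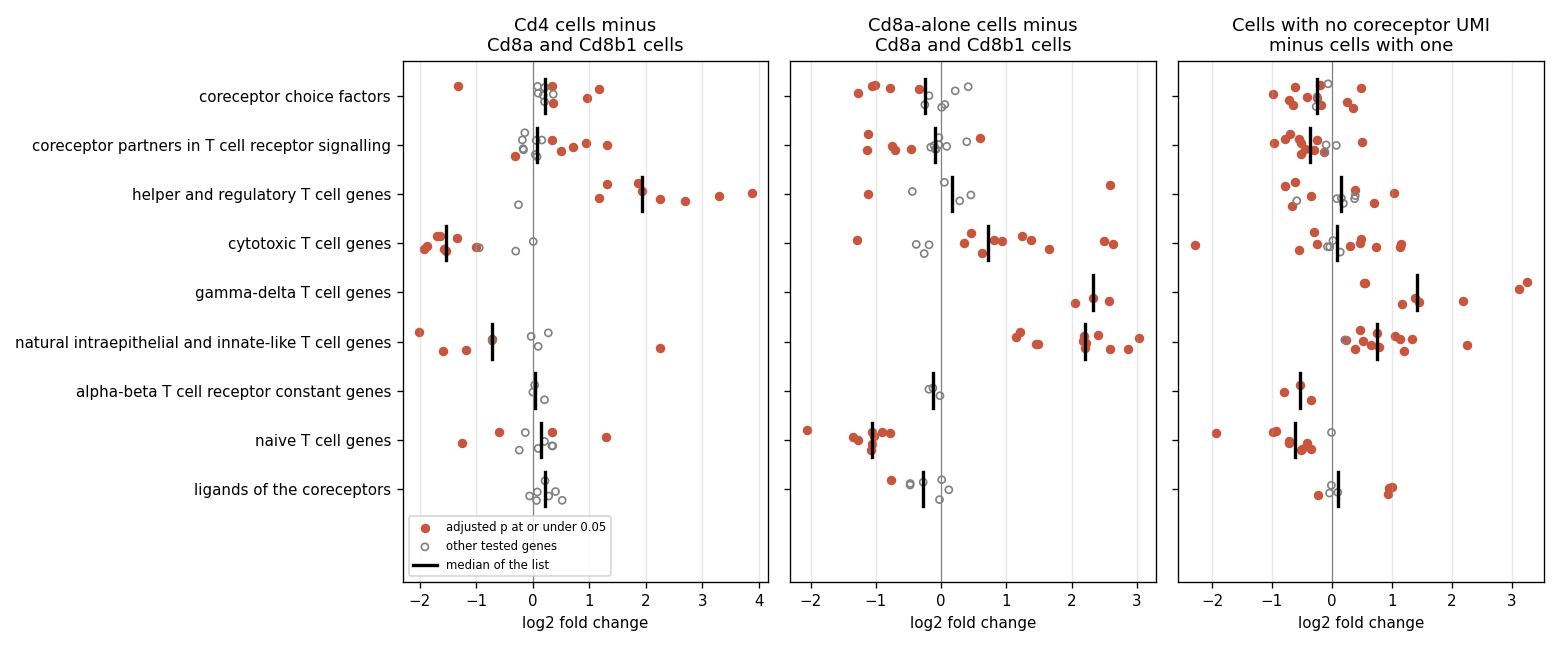
Log2 fold change (x axis) of every tested gene of the lists, 1 panel for each of the 3 comparisons of coreceptor classes; each point is a gene, filled where the edgeR adjusted p was at or under 0.05, and the tick is the list's median. In the Cd4 panel 8 of 9 helper genes were higher and 8 of 11 cytotoxic genes lower, and all 12 innate-like genes lie right of 0 in the panel of Cd8a alone.

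The classes also differed in depth. The median UMIs of a class, taken over samples, were 2593 for Cd4, 2937 for both CD8 genes, 2879 for Cd8a alone, 2809 for none and 2772 for any. When all cells were thinned to 1000 UMIs, 71 of 408 genes tested (17.4%) passed for Cd4 against both CD8 genes, 59 of 673 (8.77%) for Cd8a alone and 390 of 4564 (8.55%) for none. Of the genes called at full depth and tested in both, 124 of 125, 169 of 175 and 923 of 950 had the same sign. Of the same genes 49, 48 and 342 passed in both with the same sign. The thinned UMIs are drawn from the same counts, so agreement in sign is favoured in advance and says little on depth. In the first library alone, with its fewer UMIs, 49 (2.53%), 136 (4.5%) and 211 (2.51%) genes passed.

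Across clusters, Cd4 was highest in the Ctla4 and Foxp3 cluster of the second library, at 2.88 UMIs per 10000 (2.55 to 3.25) with samples from 2.45 (Gestation) to 3.66 (Regression). The name of that cluster rests in part on Cd4 itself. The pDC-like cluster (plasmacytoid dendritic cells, which make interferon) followed at 1.82 (1.41 to 2.32), with the clusters led by Cd28 and Cd6 at 1.12 (1.02 to 1.22) and by Dapl1 and Lef1 next. Within the first library the Lef1 and Tcf7 cluster was highest among clusters of at least 50 cells, at 1.08 (0.964 to 1.20). ILC2-like cells, innate lymphocytes of type 2 immunity without a T cell receptor, held 0.516 (0.306 to 0.815) in the first library and 0.418 (0.262 to 0.633) in the second library. Of the cells in these clusters 36.4% and 37.6% were Cd3-positive, and with finer clusters (resolution 2) Cd4 was 0.0901 (0.0109 to 0.325) in the first library, with 10.8% Cd3-positive, and 0.424 (0.268 to 0.636) in the second library, with 39.6%. Before finer clustering, the ILC2-like cells held 18 Cd4 UMIs in the first library and 22 in the second library, and 13 and 15 of their Cd3-positive cells had Cd4. Macrophage-like cells held 0.388 (0.311 to 0.478) and 0.247 (0.210 to 0.289), against 0.0168 and 0.0191 in B-like cells.

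Among 3 clusters of the first library Cd8a varied less than Cd8b1 did. Within the first library Cd8a was 2.70 (2.51 to 2.89) in the Trgv2 and Trgc2 cluster, 2.63 (2.43 to 2.84) in a cluster led by Thy1 and Cd28 and 2.30 (2.13 to 2.48) in the Lef1 and Tcf7 cluster, where Cd8b1 was 0.1996 (0.152 to 0.258), 3.02 (2.81 to 3.24) and 3.93 (3.71 to 4.16). The highest Cd8a cluster was thus the lowest of the 3 in Cd8b1. Within the second library Cd8b1 was highest in the Dapl1 and Lef1 cluster, at 5.02 (4.82 to 5.23), and stood at 0.290 (0.247 to 0.339) in the Itgae and Gzmb cluster. Cd8a in that last cluster was 1.72, ranging from 0.751 in Balb/c to 3.30 in GF.

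**Figure D5:**
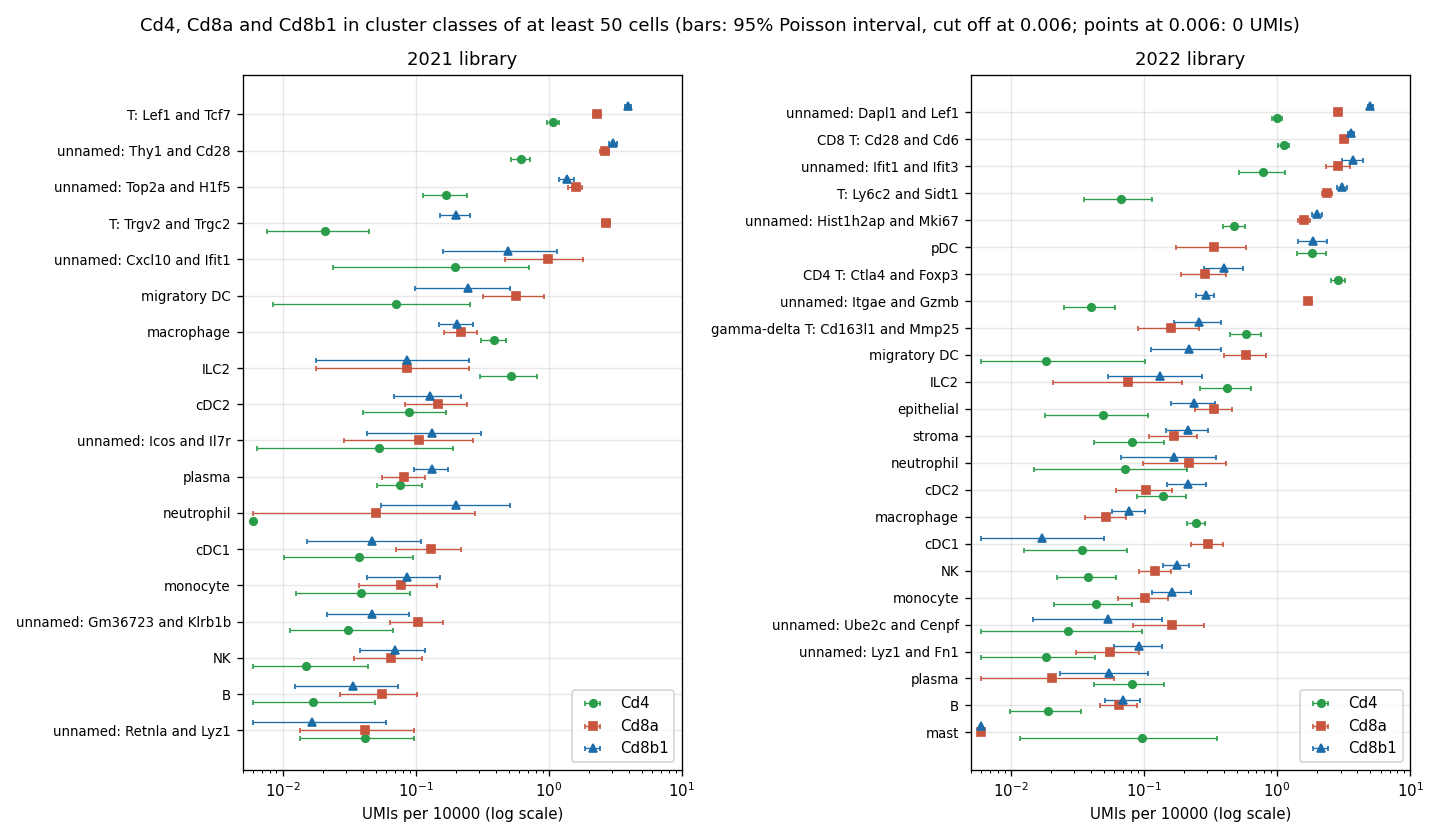
UMIs per 10000 (log scale) of Cd4, Cd8a and Cd8b1 in each cluster class of both libraries; points pool the hash-defined samples of a library and bars are exact 95% intervals, cut off at 0.006, where points with 0 UMIs are drawn. Class names stand for likeness to marker lists. Cd8b1 was 0.1996 in the Trgv2 and Trgc2 cluster of the first library and 5.02 in the Dapl1 and Lef1 cluster of the second library.

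Myeloid cells here are the Cd3-negative cells of macrophage-like, monocyte-like, neutrophil-like and dendritic cell-like clusters. Unnamed clusters led by Retnla and Lyz1 (first) and by Lyz1 and Fn1 (second library) were not counted. In the Retnla and Lyz1 cluster Cd4 was found in 0 of 334 cells at 1000 UMIs, which allows up to 0.898%. Over the cells counted, the share with Cd4 exceeded the background at 1000 UMIs, while the intervals of the CD8 genes overlapped it. The background was read from Cd3-negative B-like cells, which should lack all 3 genes. At 1000 UMIs a Cd4 UMI was found in 45 of 2107 myeloid cells in the first library (2.14%, 1.56 to 2.85) and in 29 of 2317 in the second library (1.25%, 0.840 to 1.79). In B-like cells it was found in 1 of 465 and 9 of 2658. Cd8a was found in 0.570% and 0.475% of myeloid cells and Cd8b1 in 0.475% and 0.388%, with intervals that overlapped those of B-like cells. Without thinning, Cd8a in samples of the second library ranged from 0.0314 (HT2) to 0.307 UMIs per 10000 (Regression) in myeloid cells. In B-like cells it ranged from 0 to 0.0570 (Involution). Cd8b1 ranged from 0.0205 (GF) to 0.205 (Gestation) and from 0 to 0.126 (Lactation). In Gestation of the first library Cd8a was 0.0216 in myeloid and 0.0532 in B-like cells. An excess of the CD8 genes at full depth was not tested. Before thinning the median UMIs were 1138 and 1991 in B-like cells and 2133.5 and 4483 in macrophage-like cells.

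Macrophage-like cells carried most of the myeloid Cd4. The share with Cd4 was 4.71% (34 of 722, 3.28 to 6.52) in the first library and 1.78% (19 of 1069, 1.07 to 2.76) in the second library, and the intervals did not overlap. By sample it was, in the first library, 3.70% in HT2, 4.38% in Nulliparous, 4.76% in Gestation and 5.18% in Lactation, from 2, 7, 15 and 10 cells. For the second library it was 3.44% in Involution (9 of 262, 1.58 to 6.42), 2.34% in GF, 2.27% in Gestation, 1.48% in HT2 and 0.559% in Regression (1 of 179). It was 0 of 42 cells in Lactation, which allows a share of up to 7.14%, and 0 of 100 in Balb/c, which allows up to 3%. Differences between stages were not detectable at these numbers of cells. Monocyte-like cells had Cd4 in 1 of 561 cells in the first library and in 0 of 484 in the second library, which allows up to 0.620%.

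The dendritic cell clusters differed in which coreceptor they carried. pDC-like cells had Cd4 in 10.8% (4 of 37, 3.03 to 25.4) in the first library and 10.0% (6 of 60, 3.76 to 20.5) in the second library, and Cd8b1 in 18.9% (7 of 37, 7.96 to 35.2) and 8.33% (5 of 60, 2.76 to 18.4). Cd8a was found in 3 of 37 and 0 of 60 of them. Nulliparous gave 23 of the 37 cells and Balb/c 35 of the 60. Cd8b1 was found in 1 of the 35 Balb/c cells (2.86%, 0.0723 to 14.9) and in 2 of 8 of Gestation in the second library. Pooled over samples, the Cd4 and Cd8b1 intervals of pDC-like cells lay above those of B-like cells in both libraries, and cells with both CD8 genes were not counted. cDC1-like cells, the type whose lymphoid form is known for CD8αα, had Cd8a in 0.671% (2 of 298) in the first library and 2.20% (4 of 182, 0.602 to 5.53) in the second library, and Cd8b1 in 0 of 298 and 0 of 182. The interval of Cd8a in the second library overlapped that of B-like cells (0.155 to 0.642). Without thinning, Cd8a in cDC1-like cells of the second library ranged from 0 (Lactation) to 1.07 UMIs per 10000 (Regression, 17 UMIs). In B-like cells it ranged from 0 to 0.0570, and Cd8b1 in cDC1-like cells from 0 to 0.0738 (Balb/c). In the first library Cd8a in cDC1-like cells ranged from 0 (Gestation and Lactation) to 0.381 (Nulliparous, 9 UMIs). The difference was not tested.

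In the fit of Lactation over Gestation in myeloid cells 74 of 8944 genes (0.827%) passed with edgeR and 0 (0%) with DESeq2, where 47 had an unadjusted p under 0.05. Cd4 gave 32 UMIs in Gestation and 34 in Lactation in the first library, and 35 and 6 in the second library, with a log2 fold change of -0.36 (SE 0.36, edgeR adjusted p = 0.973). Cd8b1 gave 5, 5, 25 and 7 UMIs, with -0.48 (SE 0.56, edgeR adjusted p = 0.977), and Cd8a was too rare to be tested. Neither gene passed.

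The genes whose level across clusters was most like that of a coreceptor gene were ranked by the mean of Pearson's r over 18 clusters in the first library and 24 in the second library, among 5649 genes. These values are descriptions, since clusters of a library share droplets and depth. For Cd4 they were Cd5 (0.779), Izumo1r (0.762), Cd6 (0.739), Themis (0.730) and Cd28 (0.710). For Cd8a they were Cd8b1 (0.855), Cd3d (0.786), Sidt1 (0.778), Fam78a (0.768) and Cd3e (0.757), and for Cd8b1 they were Cd8a (0.855), Themis (0.852), Sidt1 (0.775), Cd6 (0.767) and Lef1 (0.756). Cd4 itself had a mean r of 0.462 with Cd8a and 0.684 with Cd8b1.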

How the data were processed

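Expression was measured with the 10x Genomics 3' v3.1 protocol in CD45+ mammary gland cells, per the labels. The deposited gene matrices hold raw UMI counts and the deposited tag matrices raw tag counts. Cell Ranger 6.1.0 and mm10 are named in the submitters' processing notes, while the matrix of the first library names Cell Ranger 4, per the file headers. The coreceptor genes, lists and comparisons were chosen with earlier results of these data known.

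Cells with at least 500 UMIs, 300 genes and at most 10% mitochondrial UMIs were kept, 21604 in the first library and 21177 in the second library. Cells with a single tag were called with HTODemux (Seurat 5.3.0, quantile 0.99), and doublets called by Scrublet and doublet clusters were left out. Cells were clustered per library without the 3 genes (scanpy 1.11.5, Leiden, 2000 variable genes, 30 components, resolution 1.0), and clusters were called alike to a type from marker lists, which hold coreceptor genes for the CD4 and CD8 T types. The 55253 genes matched by symbol entered the fits, and 234 entries that share a symbol were left out. Summed counts were tested with edgeR 4.0.16 (TMM, filterByExpr, Benjamini-Hochberg at 0.05) in R 4.3.3, in samples with at least 20 cells in both classes. The fits were tested on simulated data first. The named genes are the 3 coreceptor genes, up to 6 genes of each list with the smallest p, and up to 8 genes in each direction with the largest log2 fold change among those past the threshold, of the same sign in each library alone and with a mean of at least 20 CPM. Some of these are given only in the counts, and 1 gene is not reported here. Alternatives covered the thinning depth, the Cd3 gate, tag calling, doublets, mitochondrial limit, scaling, filter, test, block and libraries or samples left out.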

Additional observations from a re-analysis of the deposited data

Results flagged for a closer look

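The log2 fold change of Lactation over Gestation had opposite signs in the libraries for 3 quantities, each from 1 sample per stage and library. Cd8a in Cd3-positive cells was 0.51 in the first library and -0.10 in the second library. Cd4 in Cd3-negative myeloid cells was 0.25 in the first library and -1.50 in the second library, where Lactation held 6 Cd4 UMIs. Cd8b1 in Cd3-negative myeloid cells was 0.16 in the first library and -0.80 in the second library, from 5 to 25 UMIs a sample. The difference between the libraries was not tested for any of them.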

How the results depend on the processing

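The median share over samples depended most on depth. For the first library, thinning to 500 UMIs, to 2000 UMIs or not at all gave 2.50, 2.39 and 5.99% for Cd4 (4.19% at 1000 UMIs), 1.84, 7.61 and 8.03% for both CD8 genes (5.31%) and 80.9, 68.5 and 66.1% for none (69.9%), and thinning to 500 gave 7.37% for Cd8a alone (12.002%). In the second library the same settings gave 3.33, 10.3 and 12.6% for Cd4 (5.76%), 2.48, 13.9 and 18.6% for both (5.94%) and 79.7, 53.9 and 50.9% for none (66.0%), and thinning to 500 or not at all gave 6.47 and 7.27% for Cd8a alone (8.27%). A gate of at least 2 Cd3 UMIs gave 13.5% for Cd8a alone and 68.5% for none in the first library, and 9.33% for Cd8a alone, 6.75% for both and 64.0% for none in the second library; the Cd3 gate before thinning gave 72.0% and 67.6% for none. With the tag of most counts Cd4 was 6.59% and both 8.18% in the second library. With Scrublet calls kept Cd8a alone was 10.9% in the first library, and both 7.31% and none 64.6% in the second library. At most 5% mitochondrial UMIs gave 72.1% for none in the first library, and 6.84% for Cd4, 6.72% for both and 9.07% for Cd8a alone in the second library. The Cd8a to Cd8b1 UMI ratio in Lactation over Gestation, 2.88 in the first library, was 2.66 when cells with more than 5 UMIs of either gene were left out and 2.85 to 3.27 under the other settings for cells and tags, and 1.36 in the second library became 1.29 to 1.37; these alternatives were chosen after seeing the data. Myeloid cells with Cd4 were 3.40% in the first library and 5.66% in the second library without thinning, and 3.08% and 3.63% at 2000 UMIs.

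Lactation over Gestation in Cd3-positive cells called 9 genes, against 5 with RLE scaling, 178 with no filter, 15 with 2 Cd3 UMIs, 26 with Scrublet calls kept and 0 with the tag of most counts (457 at an unadjusted p under 0.05) or without the replicate block of library years (189 at an unadjusted p under 0.05). In myeloid cells it called 74, against 0 with DESeq2 (47 unadjusted) or without the replicate block (221 unadjusted), 1 with the tag of most counts and 3 with Scrublet calls kept. Cd4 against both CD8 genes called 515, against 808 with no filter, 308 without the replicate block of samples, 71 thinned and 49 in the first library alone. Cd8a alone called 553, against 876 with no filter, 59 thinned and 136 in the first library alone. No coreceptor called 1656, against 550 without the replicate block, 960 with 2 Cd3 UMIs, 390 thinned and 211 in the first library alone. Fewer genes were tested when cells were thinned, and fewer samples in the first library alone; otherwise the cause was not tested. Same-numbered samples share a library, and with 2 pairs no further check of pairing was made. Leaving out a Gestation or Lactation sample left no residual degrees of freedom: Cd8a in Cd3-positive cells ranged from -0.10 without replicate 1 to 0.51 without replicate 2, and in myeloid cells Cd4 ranged from -1.50 without replicate 1 to 0.25 without replicate 2 and Cd8b1 from -0.80 to 0.16. Other reversals were Lcp2 (-0.0043) for Cd4 in the first library alone, Igkc (0.028) for Cd8a alone when thinned, and, for no coreceptor, Ctla4 (0.53 thinned, 0.29 in the first library alone) and Izumo1r (0.15 in the first library alone).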
